A study of Mus musculus with 4 samples.

Results

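The genes described here are those whose level in shYthdf2+DF2WT, the library of knockdown cells given wild-type YTHDF2, stood apart from all 3 other libraries in the same direction. A gene was eligible with a mean of at least 100 reads over the 4 libraries, off chromosome Y and the mitochondrial chromosome, and *Slc7a11* was left out by the rule. It was a member when log2(CPM + 0.1), where CPM is a gene's reads scaled to a common library total, differed by at least 0.7 from each of the other 3 libraries. Among 50559 genes, 12269 were eligible, and 16 were members, which is 0.130% of the eligible genes. Of these, 10 were higher in shYthdf2+DF2WT (0.0815%) and 6 were lower (0.0489%), or 6 and 8 with upper-quartile scaling. The higher members were *Cacna1h*, *Espn*, *Ttbk1*, *Rin3*, *Tpd52-ps*, *Aamdc*, *Cdk20*, *Loxl4*, *3110009E18Rik* and *Ier3*, and 4 lower ones are described, *Gm12751*, *Gm20045*, *Gm18412* and *Sdccag8*, so that 14 of the 16 members are named. The members were selected on their measured levels in all 4 libraries, so the differences below are a description and were not tested.

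N6-methyladenosine (m6A) is a methyl mark on adenosines of mRNA, found most often near the stop codon and in the 3′ untranslated region. YTHDF2 is a cytoplasmic reader of m6A. It recruits the CCR4-NOT complex, which shortens poly(A) tails and leads bound transcripts to decay. A reader that cannot hold m6A can therefore be set beside the wild-type protein to ask which effects on transcripts need the mark.

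All 4 groups were E14 cells, a line of mouse embryonic stem cells (ESCs) derived from the inner cell mass, grown without feeders on gelatin in serum replacement with leukemia inhibitory factor. Per the methods of the study, the hairpins came by lentivirus and lines were kept by puromycin selection. The control shScram+EV carried a scrambled hairpin and empty vector, shYthdf2+EV a *Ythdf2* hairpin and empty vector, shYthdf2+DF2WT that hairpin with wild-type YTHDF2, and shYthdf2+DF2Mut that hairpin with YTHDF2 mutated where it binds m6A. These are called the control, knockdown, wild-type and mutant libraries below, in which order values of a gene are listed. Each group had 1 library, so no difference has a replicate check, and line, culture and library cannot be told apart from the construct.

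Totals ranged from 31533129 to 35742335 reads. *Ythdf2*, the gene targeted and re-expressed, had 2806 reads (86.7 CPM) in the control, 662 (18.5 CPM) in the knockdown, 7661 (235 CPM) in the wild-type and 6925 (220 CPM) in the mutant library. It was thus lowest in the knockdown with empty vector and highest in both libraries with a construct, as the labels give them, although counts per gene do not separate the construct's RNA from the cell's own. All 12 ESC markers were present in every library, at 135 CPM (*Utf1*) or more. Intervals below are 95% Clopper-Pearson intervals on read pairs, taken as reads divided by 2, and cover counting error only.

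Because m6A sits in a DRACH context of which GGAC is the core most often methylated, the coding sequences of the members were searched for GGAC on the transcript strand. The site nearest the stop codon is shown for the higher members whose levels are described most fully and for the lower member *Sdccag8*, with 12 bases on each side and GGAC in capitals. The sequences are from GENCODE vM21 on mm10, at chr17:25375183-25375210 (minus strand) for *Cacna1h*, chr4:152124862-152124889 (minus) for *Espn*, chr17:35822244-35822271 (plus) for *Ier3* and chr1:176824849-176824876 (plus) for *Sdccag8*.
Cacna1h: gagaaggagcaaGGACtgtacctcactg
Espn: gggctcgccagaGGACcagacagaagac
Ier3: ctcggagtcctcGGACtatgcgctggat
Sdccag8: cgtagaaaatgaGGACacaggggtggcc

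These sites lie 92, 210 and 51 coding bases from the end of the coding sequence in *Cacna1h*, *Espn* and *Ier3*. In *Sdccag8* the distance is 1974 bases, the largest of all coding members. The search left out the 3′ untranslated region, so it does not cover all sequence near the stop codon. GGAC was present in the last 300 coding bases of 8 of 9 coding higher members and in 0 of 3 coding lower members, beside 8532 of 11126 eligible genes (76.7%). *Cacna1h* held 42 GGAC in 7080 coding bases and *Sdccag8* 3 in 2154, or 5.93 and 1.39 per kilobase. This density ranged from 2.07 (*Ier3*) to 7.48 in the 9 coding higher members. In the 3 coding lower members it ranged from 1.39 to 7.31, so the ranges overlap, and the median of eligible genes was 4.90. The wider motif DRACH had a median of 19.08 matches per kilobase of transcript in higher members, 22.89 in lower members and 20.02 in eligible genes. A match is a string of letters and not a measured m6A site, and GGAC is itself rich in GC.

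The higher members were led by *Cacna1h*, at chr17:25593259-25655308 (mm39, as for all genes below), the pore-forming subunit of a T-type voltage-gated calcium channel. It had 138 reads in the control, 94 in the knockdown, 299 in the wild-type and 76 in the mutant library. The library with wild-type YTHDF2 was the only high one. Its CPM was 2.13 times that of shScram+EV, 3.40 times that of shYthdf2+EV and 3.70 times that of shYthdf2+DF2Mut, with log2 differences of 1.09 (0.69 to 1.54), 1.76 (1.32 to 2.31) and 1.89 (1.41 to 2.48). The level was also lower in the knockdown than in the control, by a log2 difference of -0.68 (-1.26 to -0.14), and the mutant library lay at -0.12 (-0.78 to 0.52) from the knockdown. In RNA from whole cultures, fewer cells expressing a gene and less of its RNA per cell cannot be told apart.

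*Espn* encodes espin, which bundles the actin filaments of hair cell stereocilia, and lies at chr4:152204788-152236871. Its reads were 247 in the control, 132 in the knockdown, 481 in the wild-type and 90 in the mutant library. The wild-type library was highest, the control came next, and both other libraries were low. The log2 difference of shYthdf2+DF2WT was 0.94 (0.63 to 1.28) from the control, 1.97 (1.60 to 2.41) from shYthdf2+EV and 2.33 (1.91 to 2.86) from shYthdf2+DF2Mut, the last a ratio of 5.03.

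*Ier3*, an immediate early gene at chr17:36132605-36133803 that responds to stress and growth signals and modulates cell death, had the most reads of the higher members. There were 572 reads in the control, 441 in the knockdown, 954 in the wild-type and 228 in the mutant library. The order of the libraries was that of *Espn*. At 0.73 (0.51 to 0.95) from the control it lay just past the threshold, and it fell under 0.7 in 6 of 7 other settings, such as TMM scaling (0.68) and upper-quartile scaling (0.63), while it was 1.24 (1.01 to 1.48) above shYthdf2+EV and 2.00 (1.72 to 2.33) above shYthdf2+DF2Mut. It was the only member among the 27 eligible genes of an immediate early list, of which 11 were above all 3 other libraries and 1 below all 3, beside 3727 and 2805 of 12269 eligible genes. The list's median of the mean of the 3 differences was 0.12, and 0.007 with the trend on GC content and exon length removed. Over all eligible genes these medians were 0.02 and 0.03. In that list *Junb* (1336, 1234, 1729 and 810 reads) followed the order of *Ier3*, whereas *Fos*, a subunit of the AP-1 transcription factor, had 3623, 1323, 2551 and 829 reads, so it was highest in the control rather than in shYthdf2+DF2WT.

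**Figure D1:**
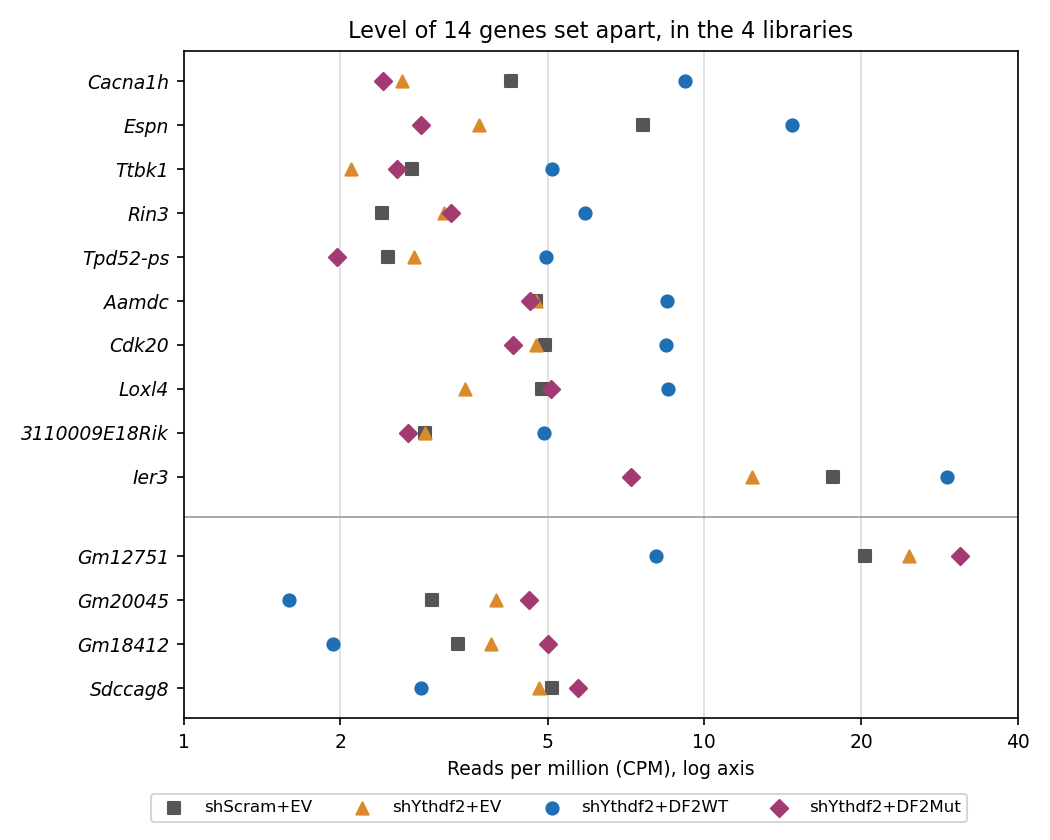
CPM on a log axis for the 10 members higher (above the line) and 4 members lower (below it) in shYthdf2+DF2WT, with 1 point for each of the 4 libraries. In every row the circle of shYthdf2+DF2WT lies outside the other 3 points, as the rule requires; in *Aamdc* the other 3 lie almost together, and in *Espn* and *Ier3* they are spread out.

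Other higher members differed little among the 3 other libraries. *Aamdc*, at chr7:97199538-97228723 and named for a link to adipogenesis, had 154, 170, 276 and 146 reads. *Cdk20*, at chr13:64580133-64587536, a kinase of the cyclin-dependent family tied to primary cilia, had 160, 170, 275 and 135 reads. *3110009E18Rik*, at chr1:120047763-120115920, had 94, 104, 160 and 85. In these genes the control, the knockdown and the mutant library were alike within a log2 range of 0.04 (*Aamdc*), 0.20 (*Cdk20*) and 0.11 (*3110009E18Rik*), against smallest differences of 0.82, 0.76 and 0.74 to the wild-type library. Over all 16 members the median log2 range of the 3 other libraries was 0.55, against 0.31 over the eligible genes.

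*Ttbk1*, a kinase of tau and tubulin at chr17:46751587-46798601, had 89 reads in the control, 75 in the knockdown, 166 in the wild-type and 81 in the mutant library. *Loxl4*, at chr19:42580718-42601326, belongs to the lysyl oxidases, which cross-link collagen and elastin, and had 158, 124, 278 and 160 reads. Their smallest log2 differences were 0.87 (0.35 to 1.45, to the control) and 0.74 (0.34 to 1.17, to the mutant library). Among the other lysyl oxidase genes, chosen for comparison after these values were seen, *Loxl2* was eligible and its smallest difference was 0.16.

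*Rin3*, at chr12:102248572-102358982, a Ras and Rab interactor that activates Rab GTPases of early endosomes, had 78 reads in the control, 113 in the knockdown, 192 in the wild-type and 103 in the mutant library. The wild-type library was highest and the control lowest. The median of the 488 eligible genes of chromosome 12 was itself shifted against other autosomes, by 0.18 toward shYthdf2+DF2WT against shYthdf2+EV, by 0.16 against shYthdf2+DF2Mut and by -0.11 against the control. With that shift removed, an alternative added after the data were seen, the differences of *Rin3* went from 0.88 to 0.70 (just under the threshold) and from 0.83 to 0.67, and that from the control rose from 1.26 to 1.36. *Tpd52-ps*, a pseudogene at chr8:80405464-80407577, had 80, 99, 162 and 62 reads, and 39.1% of its 31-base words also occur in *Tpd52*, so the source of its reads is uncertain. *Tpd52* itself had 5698, 5224, 5530 and 4957 reads.

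Among the lower members, *Sdccag8*, at chr1:176642226-176848004, encodes a centrosomal protein mutated in ciliopathies. It had 165 reads in the control, 172 in the knockdown, 93 in the wild-type and 180 in the mutant library. The 3 other libraries were alike and the wild-type library alone was low, by -0.81 (-1.39 to -0.30), -0.73 (-1.30 to -0.22) and -0.98 (-1.54 to -0.47).

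The other lower members named here are not protein coding. The pseudogene *Gm12751*, at chr4:34353965-34354854, had 660 reads in the control, 882 in the knockdown, 263 in the wild-type and 977 in the mutant library. It had the highest mean count of all members and the largest smallest difference, -1.33 (-1.64 to -1.04) to the control, with -1.60 (-1.90 to -1.33) to shYthdf2+EV and -1.93 (-2.23 to -1.66) to shYthdf2+DF2Mut. It was the only eligible gene whose intervals lay beyond 0.7 in all 3 comparisons. Every 31-base word of its GENCODE transcript, which is shorter than its exons in the table, also occurs in *Polr1d*, a subunit of RNA polymerases I and III, so which locus its reads came from is uncertain. *Polr1d* had 2355, 3740, 3485 and 2513 reads, with the wild-type library not at the low end.

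*Gm18412*, a pseudogene at chr13:66816984-66817928, had 109, 139, 63 and 158 reads, and 70.5% of its exon bases lie within exons of *Zfp640* on the same strand, where reads were assigned to neither gene. *Zfp640* had 812, 1150, 682 and 1160 reads, ranked like those of *Gm18412* but with a smallest difference of -0.26. The long noncoding RNA *Gm20045*, at chr1:171148169-171154882, had 97, 142, 52 and 145 reads, and shares 11% of its exon bases with *Dedd* on the other strand. In both, the wild-type library was lowest and the mutant library highest. Pseudogenes and lncRNAs made up 4 of 16 members, 3 of them lower, beside 6.67% of the eligible genes.

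**Figure D2:**
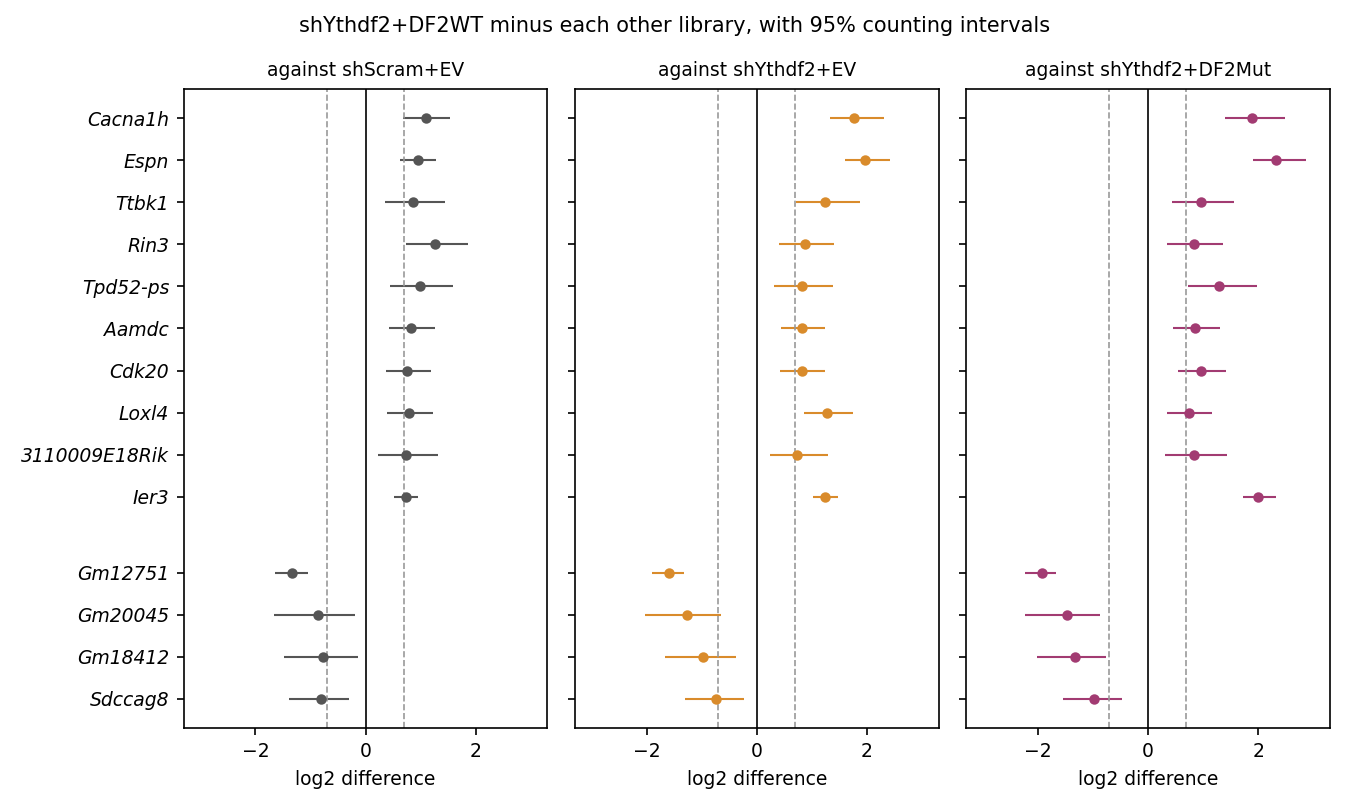
Log2 difference of shYthdf2+DF2WT from each of the 3 other libraries for 14 members, as points with 95% counting intervals on read pairs, and dashed lines at 0.7 on either side of 0. The difference from shScram+EV is the smallest of the 3 in 8 of these 14 members, and every interval drawn leaves out 0.

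The members therefore came in different orders of libraries. In 6 of all 16, including 4 of the 14 named members (*Cacna1h*, *Espn*, *Ier3* and *Gm12751*), both shYthdf2+EV and shYthdf2+DF2Mut differed from the control in the direction opposite to shYthdf2+DF2WT, with intervals that left out 0, beside 12.8% of eligible genes. In *Gm20045* and *Gm18412* this held for the mutant library but not for the knockdown. The knockdown's interval against the control held 0 in 10 of 16 members (beside 41.5% of eligible genes), and the mutant's interval against the knockdown held 0 in 13 of 16 (beside 63.2%). Members had lower counts than most eligible genes and intervals widen at low counts, so these shares are not matched for count. Past 0.7 against the control, the knockdown was higher in 2 of 16 members and 0 of the 14 named (beside 5.43% of eligible genes) and lower in 1 (*Espn*, with 3.36%). The mutant library was higher past 0.7 in 2 of 16 members and 0 of the 14 named (5.05% of eligible genes) and lower in 3, *Cacna1h*, *Espn* and *Ier3* (3.46%). These comparisons share libraries with the rule, so nothing is read from them beyond the order of values.

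The members had low counts. Their median mean count was 137 reads, against 1046.5 over the eligible genes, and 14 of 16 lay in the bottom 20% of eligible genes by mean count. Only *Gm12751*, *Ier3* and *Espn* had a mean of at least 200 reads, which 88.0% of eligible genes had. The intervals left out 0 in all 3 comparisons for 15 of 16 members, beside 22.2% of eligible genes. They rest on the same differences that the rule used, so the members' share follows largely from the selection.

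The threshold cut through a continuous range. Just inside it were *Ier3* (0.73), *3110009E18Rik* (0.74) and *Loxl4* (0.74) among higher genes, and *Sdccag8* (-0.73) and *Gm18412* (-0.77) among lower ones. Just outside were *Grin1* (0.70 when rounded), the obligatory subunit of NMDA receptors, with *Tigd3* (0.67) and *Fam98c* (0.67), and on the low side *Zfp994* (-0.66), *Zfp947* (-0.64) and *Gm21082* (-0.62). *Slc7a11*, the transport subunit of the cystine and glutamate antiporter, which the rule left out, was at 213, 309, 13 and 277 reads, with a smallest difference of -3.74, far beyond any member.

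The rule set apart genes in each of the other libraries as well. In shScram+EV 4 genes were higher (0.0326%) and 83 lower (0.677%) than in all 3 others. In shYthdf2+EV 6 were higher (0.0489%) and 13 lower (0.106%), and in shYthdf2+DF2Mut 4 were higher (0.0326%) and 27 lower (0.220%). The wild-type library thus had the fewest genes set apart in all, 16, close to the 19 of shYthdf2+EV, and had more higher than lower genes, a split that upper-quartile scaling turned to 6 higher and 8 lower.

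**Figure D3:**
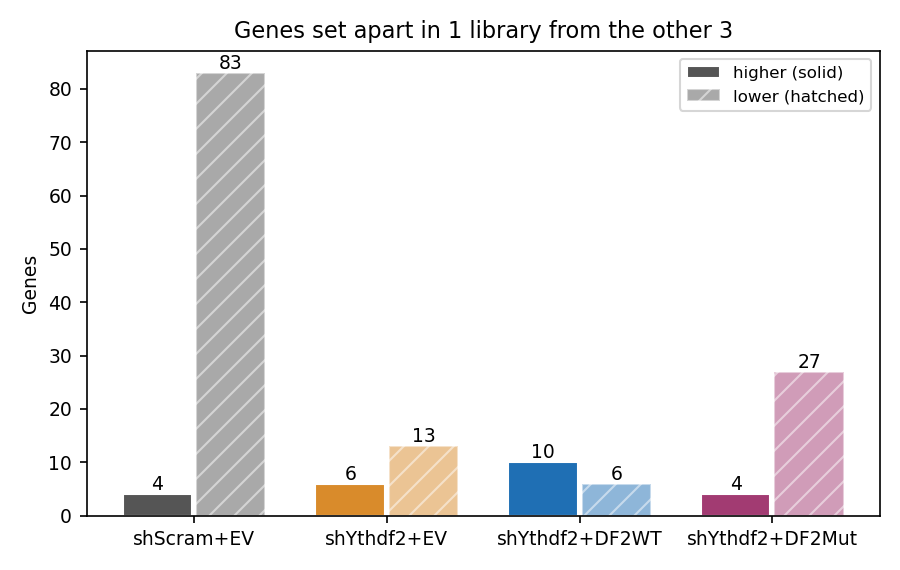
Number of genes that the same rule sets apart in each of the 4 libraries, with solid bars for genes higher and hatched bars for genes lower than in all 3 others. The bars for shYthdf2+DF2WT are 10 and 6, beside 4 and 83 for shScram+EV.

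The members differed in base composition, which the rule did not use. GC content of the longest GENCODE vM21 transcript had a median of 55.4% over the 10 higher members, 42.0% over the 5 lower members with a value, and 49.7% over 11991 eligible genes. Over coding sequence alone it was 59.2% in 9 higher members, 48.3% in 3 lower members and 52.8% in 11299 eligible genes. *Espn* (62.1%) and *Cacna1h* (59.95%) were highest, while the higher member *Aamdc* (37.8%) was lowest. Of the higher members 5 lay among the 20% of genes with the highest GC content and 1 among the 20% with the lowest, and of the lower members 0 and 3.

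The whole wild-type library leaned the same way. The median difference of shYthdf2+DF2WT from shYthdf2+DF2Mut went from -0.24 in the 20% of genes lowest in GC content to 0.26 in the highest 20%, that from shYthdf2+EV from -0.18 to 0.17, and that from the control from -0.10 to 0.23. Exon length separated members less, though the library leaned with it too. The median difference from shYthdf2+DF2Mut went from 0.25 in the shortest 20% of genes to -0.15 in the longest 20%. That from shYthdf2+EV went from 0.06 to -0.06, and that from the control from 0.20 to -0.04. Median exon length was 4704.5 bases in higher members, 4124 in lower members and 3787 in eligible genes, with *Ttbk1* (15754) the longest and *Gm12751* (890) the shortest member.

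**Figure D4:**
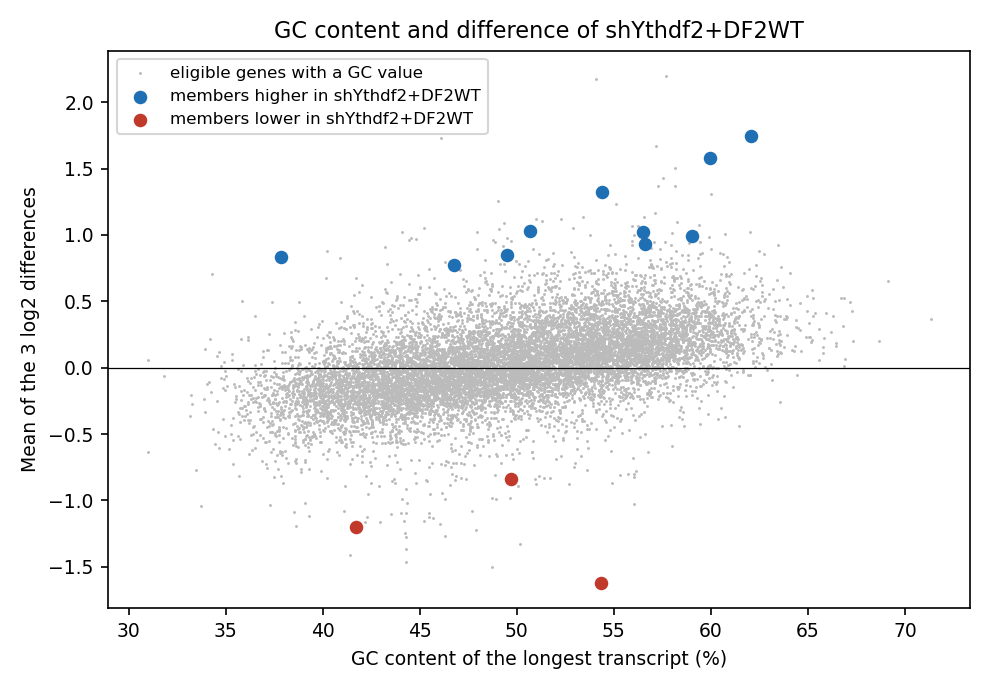
GC content of the longest transcript in percent against the mean of the 3 log2 differences of shYthdf2+DF2WT, with eligible genes in grey, the 10 higher members in blue and 3 lower members in red. The grey cloud tilts upward with GC content, and *Aamdc*, higher at 37.8% GC, and *Gm12751*, lower at 54.3% GC, lie against it.

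When the trend of each difference on GC content and exon length was removed, 10 of the 15 members with a GC value stayed past 0.7, all of them among the 13 named. *Cacna1h* was at 0.96, *Aamdc* at 0.86, *Ttbk1* at 0.81 and *Gm12751* at -1.55 after the correction. The named members that no longer passed were *Rin3* (0.66), *Loxl4* (0.61) and *Ier3* (0.53). All 15 kept their direction. *Gm18412* had no GC value and was not corrected.

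**Figure D5:**
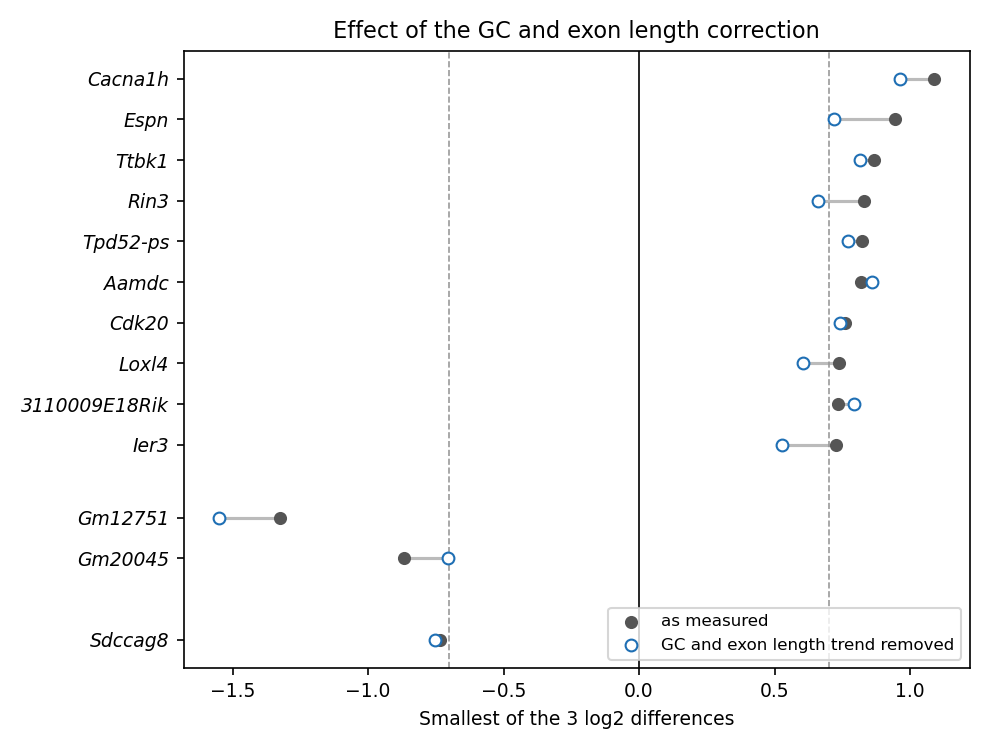
Smallest of the 3 log2 differences for 13 members with a GC value, as measured (filled) and with the GC and exon length trend removed (open), with dashed lines at 0.7 on either side of 0. *Espn* and *Ier3* move toward 0, *Gm12751* moves away from it, and 3 open circles lie inside the dashed lines.

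No member had another among its nearest eligible neighbours. Higher members *Cacna1h*, *Ttbk1* and *Ier3* were on chromosome 17, which holds 4.96% of eligible genes, but far apart. Chromosome 1, with 5.48% of eligible genes, also held 3 members, 1 higher and 2 lower. Of the 32 nearest eligible neighbours, on either side of each member, 0 passed the threshold and 13 differed from all 3 other libraries in their member's direction, beside 3727 eligible genes above and 2805 below all 3 others among 12269. Below the count filter, *Slc22a7*, next to *Ttbk1*, had 59, 50, 102 and 39 reads, highest in the wild-type library like *Ttbk1*, with a smallest difference of 0.75, past the threshold.

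Of the gene lists compared, immediate early genes held 1 member of 27 eligible genes and predicted loci, genes with Gm or Rik symbols, held 4 of 828, beside 16 of all 12269 eligible genes (0.130%). Lists of 2-cell genes (26 eligible), naive pluripotency genes (25), CCR4-NOT and mRNA decay factors (39) and YTH readers and m6A enzymes (21) held none. Nor did extracellular matrix and adhesion genes (36) or cytosolic ribosomal proteins (88). With members at 0.130% of eligible genes, holding none says little about lists this short. The median of the wild-type library's mean difference from the others was -0.81 for the 2-cell list, the largest shift of the lists compared. It was -0.78 after the GC and exon length correction, beside 0.02 and 0.03 over all eligible genes. In 4 of its 26 genes the wild-type library was below every other library, and in 1 above.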

How the data were processed

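Poly(A)+ RNA of 4 libraries, 1 per group by title, was sequenced paired-end. The study's methods describe replicates, but the labels give 1 library per group. The authors deposited read counts per gene, made per the file headers with featureCounts 2.0.3 on the mm39 RefSeq annotation, together with exon length. The submitters' processing notes name fastp 0.19.4, HISAT2 2.2.1, DESeq2 1.40.2 and mm10, so the build is stated in 2 ways. Counting was per read, not per pair, and without strand, so overlapping and antisense genes are uncertain. Reads mapping to several places were left out.

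CPM used column totals, with an offset of 0.1. No test was possible. Counts, intervals and trends were computed in Python 3.11.15 with numpy 2.4.6, pandas 2.3.3 and scipy 1.17.1, and factors with edgeR 4.0.16 and DESeq2 1.42.0 in R 4.3.3. The correction subtracted from each log2 difference a polynomial of degree 3 in GC content and in log10 exon length. Gene properties came from GENCODE vM21 (mm10) by symbol. The rule and correction were run on simulated counts. Differences were planted there only in genes with more reads than most members had, so recovery at the members' low counts was not tested. Genes set to be named were *Ythdf2*, the members and the 3 genes in each direction on either side of the threshold, and 14 of the 16 members are named. Others, such as *Slc7a11*, *Junb*, *Fos* and the genes of glycolysis, are named for comparison. The results of 2 lower members and of 1 overlapping gene are not reported here. Genes of families, overlaps, word copies and neighbours were added after values were seen. Members and lists were chosen with earlier results of these data known. Alternatives were other scalings, offsets, count minimums, thresholds, the correction, a required interval and coding GC content.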

Additional observations from a re-analysis of the deposited data

How the results depend on the processing

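No paired analysis was possible because each group had 1 library, and no replicate was left out for the same reason. The number of members followed the filters. With an offset of 1 there were 4 higher and 1 lower members, and the control, knockdown and mutant libraries set apart 42, 7 and 12 genes. With a mean of at least 50 reads there were 34 and 30 members, and 173, 80 and 79 genes in those libraries. A mean of at least 200 reads gave 2 and 1 members, and 39, 5 and 9 genes, and a mean of at least 10 gave 198 and 227 members, and 673, 472 and 471 genes. A threshold of 0.5 gave 58 and 26 members, and 259, 94 and 104 genes, and a threshold of 1 gave 1 and 1 members, *Cacna1h* and *Gm12751*, and 23, 2 and 4 genes. Upper-quartile scaling gave 6 higher members. The GC and exon length correction gave 3 lower members, set 19 genes apart in the mutant library and took the median GC content of higher members to 49.5%, while coding sequence gave 59.2%. The cause of these changes was not tested beyond the settings themselves.

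Of the 16 members, 14 were kept by TMM scaling, 14 by DESeq2 size factors, 12 by upper-quartile scaling and 15 by totals without mitochondrial genes. No member changed direction. *Cacna1h*, *Espn*, *Ttbk1*, *Aamdc* and *Gm12751* were past 0.7 under every scaling, offset and correction run, while *Ier3* was under it in 6 of 7 and *3110009E18Rik* in 4 of 7. Low counts and the lack of replicates limit these results.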

Other observations

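Genes of glycolysis and the hypoxia response, a list that held no member, were mostly a little higher in shYthdf2+DF2WT. Of 33 eligible genes 29 were above all 3 other libraries and 0 below all 3, beside 3727 and 2805 of 12269 eligible genes. The median of the mean difference was 0.39, and 0.30 after the GC and exon length correction, beside 0.02 and 0.03 over all eligible genes. A large mean could go with a small difference from the nearest library. *Hk1* had a mean of 0.64 and a smallest difference of 0.04, and *Bhlhe40* 0.73 and 0.17. The largest smallest difference of the list was 0.59, in *Ddit4*, whose mean was 0.78. *Ddit4*, a stress-induced inhibitor of mTORC1, had 107 CPM in the control, 95.4 in the knockdown, 160 in the wild-type and 80.1 in the mutant library. *Vegfa*, the angiogenic growth factor, had 58.3, 32.7, 75.8 and 35.4 CPM in that order. *Pdk1*, *Gapdh*, *Ero1a* and *Ak4* were the exceptions. Cytosolic ribosomal protein genes, which are short, were above all 3 other libraries in 78 of 88, and their median went from 0.39 to 0.21 with the correction. With 1 library per group these values have no replicate check.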
